A study of Mus musculus with 30 samples.

Results

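The first day of activation was followed in wild-type mouse B cells by setting the 3 arrays labelled day 1 against the 3 labelled day 0, so that 6 of the 30 arrays of the series form the comparison. The 6 arrays were picked by their titles alone, without use of their measured values. The groups, gene lists and rules were set with earlier results of these data known. Day 1 cells were Irf4+/+ B cells of the C57BL/6, B1-8i strain held for 1 day with CD40 ligand (CD40L), IL-2, IL-4 and IL-5. Day 0 cells were the same kind of cells without that stimulus. B1-8i mice carry an immunoglobulin heavy chain variable gene that was placed in its locus by gene targeting, and this holds for every group in the series. The labels name the starting material as mature peripheral B cells at rest. Day 0 readings that go against this label are pointed out below. The other groups used here were wild-type cells at day 3 and Irf4-/- cells (called KO) at days 0 and 1, kept without doxycycline. KO cells carry an Irf4 gene that doxycycline can switch on. Every replicate was a separate mouse. The arrays labelled KO without doxycycline, day 1 replicate 2, and KO low dose, day 1 replicate 2, went against their labels in an Irf4 probe set that followed doxycycline. Tests of the difference between genotypes are given with and without them.

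A resting follicular B cell is small, makes little RNA and protein, and circulates between blood, spleen and lymph nodes. CD40 ligand, normally presented by helper T cells, signals through TRAF adaptor proteins to NF-kB, while IL-2, IL-4 and IL-5 signal through Jak kinases to STAT factors. Together these signals make the cell grow, copy its DNA and divide, after which part of the progeny switches antibody class or becomes an antibody-secreting plasmablast.

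Levels are given as log2(intensity + 16), with the deposited signal intensity of 1 probe set per gene. Differences are day 1 minus day 0 on that scale, and n = 3 arrays in each group. The spread between arrays was small, with a median within-group SD of 0.0524 at day 1 and 0.0804 at day 0. Arrays of the same day correlated with each other at 0.997 to 0.998 on day 1 and at 0.994 to 0.996 on day 0, whereas day 1 and day 0 arrays correlated at 0.841 to 0.854. These correlations run across genes, which are not independent replicates. A gene is called changed when the Benjamini-Hochberg adjusted p of limma's moderated test is under 0.05.

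Of 12183 genes tested, 9932 changed (81.5%). Higher calls made up 4133 genes (33.9% of those tested) and lower calls 5799 (47.6%). At least 2-fold higher were 1341 genes (11%), and at least 2-fold lower were 1147 (9.41%). The 3 day 1 arrays lay wholly above or wholly below the 3 day 0 arrays in 10471 genes (85.9%), 35.5% of all genes with day 1 above and 50.4% with day 1 below. Changes of 8-fold or more were called in 51 genes upward and 63 downward, and of 32-fold or more in 1 gene upward and 10 downward. The median gene stood 0.15 lower at day 1, and median array intensities were 171.4 to 174.2 at day 1 and 189 to 199.7 at day 0. When arrays were centred on their medians, 4964 genes were called higher and 4529 lower, so 52.29% of the calls were higher, against 41.61% on the deposited scale, and the median of all genes was 0.012. Quantile normalization gave 4611 higher and 5016 lower. The counts of small changes in each direction therefore rest on the scale, and the gene groups below are read beside the shares over all genes.

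The leading gene was Ccl22, a chemokine that attracts T cells bearing CCR4. It read 13.79, 13.73 and 13.70 on the day 1 arrays, against 6.99, 6.92 and 7.06 on the day 0 arrays. No other tested gene rose as far: the difference was 6.75 (SE 0.33, limma adjusted p = 2.81e-15). Its day 0 intensities of 105.4 to 117.8 lay under the table's median of 188.2, so the size depends on the constant added, and it was 6.93 with 1 and 6.29 with 64 in place of 16. Socs2, a feedback inhibitor of cytokine receptors, stood second at 11.86, 11.86 and 11.97 on day 1 arrays, against 7.39, 7.40 and 7.69 on day 0 arrays. Of its 4 other probe sets, 1 was called in the opposite direction. Cdc6, which loads the replicative helicase onto DNA, read 11.19, 11.23 and 11.08 on day 1 arrays and 6.83, 6.63 and 7.51 on day 0 arrays. Exo1 (4.17), a nuclease of DNA mismatch repair, Melk (4.01), a kinase of proliferating cells, Ccne2 (3.97), cyclin E2, and Mybl2 (3.85), a transcription factor of the cell cycle, followed with gaps of several log2 units between the groups. Shmt1 (3.66), Rrm2 (3.65) and Rad51ap1 (3.64), which serve one-carbon metabolism, deoxynucleotide supply and recombination, completed the cell cycle and growth part of the largest rises. In 9 of the 12 largest rises all day 0 arrays lay under the table's median intensity, so those sizes are approximate. No call of detection above background was used.

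The remaining large rises were of other kinds. Dhrs3, an enzyme that reduces retinaldehyde to retinol, read 10.64, 10.60 and 10.57 on day 1 arrays and 6.52, 6.32 and 6.54 on day 0 arrays. Lad1, which codes for ladinin, an anchoring protein best known from basement membranes, read 11.27, 11.10 and 11.14 on day 1 arrays and 7.11, 7.12 and 7.35 on day 0 arrays. The wild-type groups were far apart in both, while their SEs of 0.55 and 0.99 take in KO arrays that scattered widely. The limma adjusted p was 2.74e-07 for Dhrs3 and 0.000831 for Lad1 with all arrays, and 1.39e-11 and 1.94e-11 when only wild-type arrays were fitted.

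**Figure D1:**
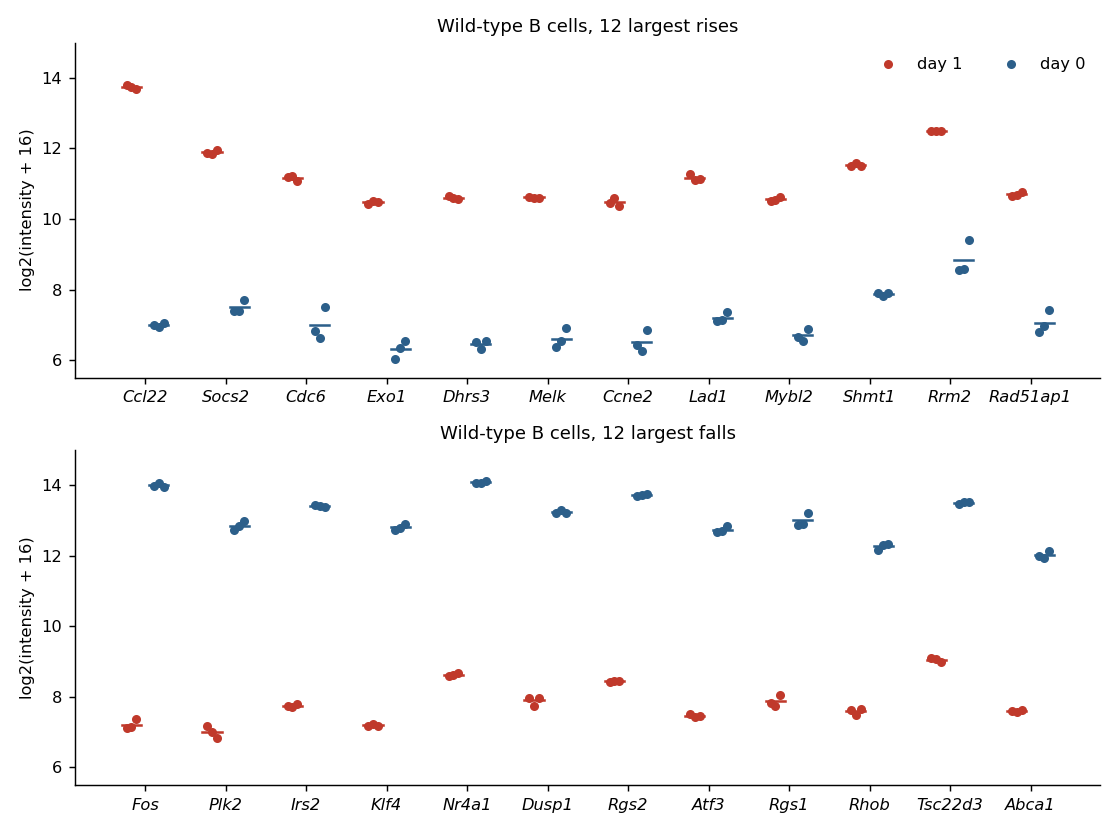
Level of the genes with the largest rises (top) and falls (bottom) on each wild-type array, as log2(intensity + 16), with day 1 in red left of day 0 in blue; points are single arrays and short lines are the means of 3. The day 1 and day 0 arrays do not overlap in any of these genes, and the differences of Ccl22 (6.75) and Fos (-6.79) are the largest shown in each direction.

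The largest falls were led by genes of the immediate early class, which cells transcribe within minutes of a stimulus or a stress. Fos, a subunit of the AP-1 transcription factor, read 7.11, 7.14 and 7.37 on day 1 arrays, against 13.99, 14.07 and 13.95 on day 0 arrays, a fall of 6.79 (SE 0.23, limma adjusted p = 4.79e-18). The difference was -6.95 with 1 and -6.39 with 64 added in place of 16, since the day 1 intensities of Fos, 122.2 to 149.7, were under the table's median. The same holds for the day 1 arrays of 6 of the 12 largest falls. Day 1 levels of Plk2, a stress-induced kinase, were 7.18, 7.01 and 6.82, against day 0 levels of 12.74, 12.84 and 12.98. Nr4a1, an orphan nuclear receptor induced by antigen receptor signals, read 8.59, 8.61 and 8.67 at day 1 and 14.07, 14.06 and 14.13 at day 0. Thus the day 0 arrays were the high ones for each of these, by margins that exceed the spread between arrays many times over. Such high day 0 readings go against the label of cells at rest, and their cause was not tested. The falls are therefore measured from a day 0 level that was itself high. Klf4 (-5.61), Dusp1 (-5.35), Atf3 (-5.28) and Rhob (-4.69) belong to the same class. Dusp1 dephosphorylates MAP kinases.

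Outside that class, Irs2, an adaptor of insulin and IL-4 receptors, read 7.73, 7.72 and 7.80 on day 1 arrays and 13.43, 13.41 and 13.39 on day 0 arrays. Rgs2 (-5.29) and Rgs1 (-5.13), which shorten signals of G protein-coupled receptors such as those for chemokines, fell alongside it. Tsc22d3 (-4.46), a glucocorticoid-induced protein also known as GILZ, and Abca1 (-4.43), a cholesterol exporter, closed the list of the largest falls.

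Over the whole immediate early list, 29 of 31 tested members fell and 1 rose, and 25 were at least 2-fold lower, while 9.41% of all genes were. The median member changed by -2.71 and its summed intensity was 40370 to 42010 on day 1 arrays, against 212100 to 220400 on day 0 arrays. Jun (-2.71), Junb (-2.94), Egr1 (-3.38), Fosb (-4.42), Klf6 (-4.18) and Ppp1r15a (-4.20) were among the falls. Gadd45b, which is also a target of CD40 and NF-kB signals, was the 1 riser (1.52), and another of its probe sets was called the other way. Plk3 stood at 0.09 and did not pass the test. Between day 1 and day 3 the wild-type list stayed low, with 11 members higher and 10 lower at day 3 and a median difference of 0.05 (background 43.3% higher and 26.2% lower over all genes). Fos differed among the day 3 arrays, at 7.58, 7.55 and 9.01.

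Promoters of this list were searched for the cyclic AMP response element, the full palindrome TGACGTCA to which CREB and ATF factors bind, in the 250 bases before each annotated RefSeq start of GRCm38.p6. A RefSeq promoter was at hand for 26 of the 31 members, and 5 of these (19.2%) held the element: Plk2, Dusp1, Ppp1r15a, Maff and Btg2. Of all 27025 genes with a RefSeq promoter, 1.8% held it, and among the tested genes with a promoter 2.9%. The windows of the pair with the largest falls are shown 5′ to 3′ on the gene's strand, with the element in capitals. They lie at chr13:110394922-110395041 on the plus strand for Plk2 and at chr17:26508556-26508675 on the minus strand for Dusp1.
Plk2: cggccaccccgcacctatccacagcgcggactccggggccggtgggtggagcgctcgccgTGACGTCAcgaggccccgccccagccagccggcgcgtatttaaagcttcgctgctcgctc
Dusp1: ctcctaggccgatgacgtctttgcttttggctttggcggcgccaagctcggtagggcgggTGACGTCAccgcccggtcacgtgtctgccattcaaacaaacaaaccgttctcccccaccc
The element lies 62 bases before the start in Plk2 and 143 bases before it in Dusp1. The CArG box of the serum response element was searched too, and 2 of the 26 members (7.7%) held it. The share was 1.6% of all genes and 1.3% of the tested genes. A match describes the letters only and is no evidence of binding.

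Genes that hold naive B cells at rest and on patrol fell as a group. Of 24 tested members of the quiescence and recirculation list, 21 fell and 2 rose, with 15 at least 2-fold lower and a median of -1.42. Klf2, a transcription factor that keeps lymphocytes quiescent, read 11.86, 11.78 and 11.92 on day 1 arrays, against 14.12, 14.14 and 14.13 on day 0 arrays. Its target S1pr1, the receptor that lets lymphocytes leave lymphoid organs along sphingosine-1-phosphate, changed by -2.42 (SE 0.13). Ccr7, which guides lymphocytes to T cell zones, read 9.82, 9.77 and 9.64 on day 1 arrays and 13.19, 13.28 and 13.30 on day 0 arrays. Pik3ip1 (-3.42), an inhibitor of PI3 kinase, and Foxo1 (-1.78), the transcription factor that PI3 kinase signalling shuts out of the nucleus, fell too. By day 3, 20 of these 24 genes were higher than at day 1 and 2 lower, with a median difference of 0.69. Their summed intensity was 132000 to 133100 at day 0, 38890 to 40430 at day 1 and 57960 to 62590 at day 3. Pik3ip1 was 2.67 higher at day 3 than at day 1, and Klf2 differed by 0.13 (adjusted p above the threshold).

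**Figure D2:**
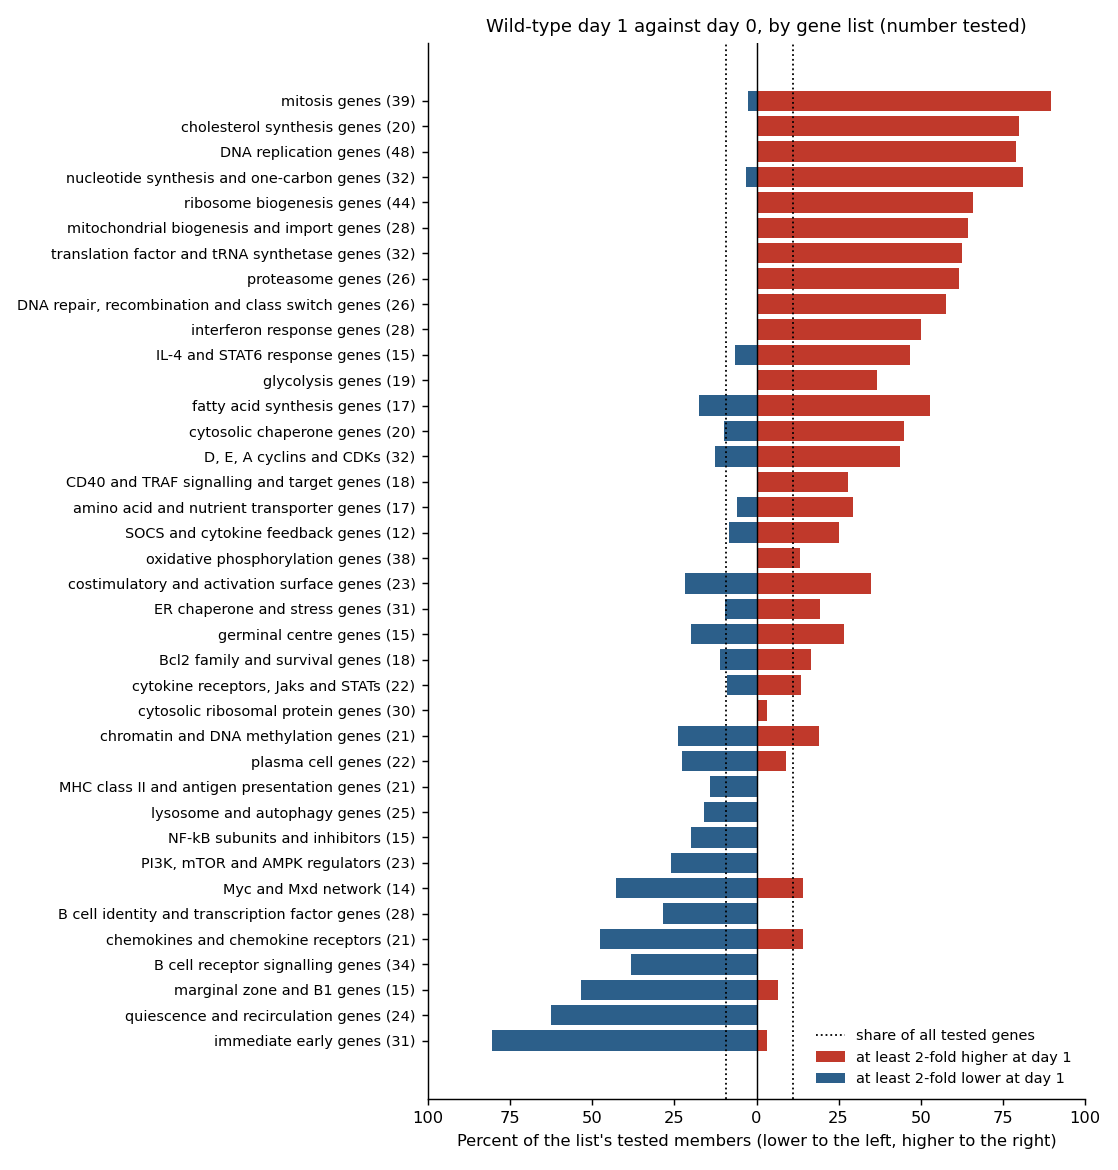
Percent of each gene list's tested members that were at least 2-fold higher (red, right) or at least 2-fold lower (blue, left) in wild-type cells at day 1 than at day 0, with the number tested in brackets; dotted lines give the shares of all tested genes, 11% and 9.41%. Mitosis, cholesterol, replication and nucleotide genes fill the upper end, and immediate early, quiescence and marginal zone genes the lower end.

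The B cell receptor list fell almost throughout. Of 34 tested signalling genes 31 fell and 0 rose, with 13 at least 2-fold lower and a median of -0.79. At an unadjusted p under 0.05 the limma count was again 0 higher and 31 lower. Vav3, a guanine nucleotide exchange factor, was the 1 member whose day 1 arrays lay wholly above its day 0 arrays, by 0.13 (adjusted p = 0.114). Cr2, the complement receptor CD21 that lowers the threshold of B cell activation, read 10.43, 10.51 and 10.54 on day 1 arrays and 13.19, 13.21 and 13.12 on day 0 arrays. Syk (-2.22), the kinase that starts the receptor's cascade, Blk (-2.17), a Src family kinase of B cells, Malt1 (-2.51), which links the receptor to NF-kB, and Cd72 (-1.98), an inhibitory coreceptor, moved the same way. Cd79a, one of the receptor's signalling chains, changed by -1.20, and Cd79b, its partner, by -0.21.

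Transcription factors that define B cells were lower by smaller amounts. In that list of 28 genes 22 fell and 2 rose, with 8 at least 2-fold lower and a median of -0.74. Ebf1 (-1.32), Ets1 (-1.16), Foxp1 (-1.14), Spib (-1.10) and Bach2 (-0.84), which restrains plasma cell differentiation, were among them. After arrays were centred 19 of the list fell and 3 rose, with 3 at least 2-fold lower and a median of -0.58. Bcl6, the germinal centre repressor, read 10.43, 10.44 and 10.40 on day 1 arrays and 11.62, 11.53 and 11.34 on day 0 arrays. Irf8 was lower by 0.28, a change that did not pass the threshold after arrays were centred (adjusted p = 0.0854). Pax5, the commitment factor of the B lineage, was 0.72 higher on its representative probe set, while its other set was called lower.

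Irf4 itself is read by a pair of probe sets. The one that represents the gene read 11.76, 11.66 and 11.74 on day 1 arrays and 13.14, 13.17 and 13.22 on day 0 arrays, a fall of 1.45. That set also read 12.75, 12.78 and 12.41 in KO cells at day 0, so it does not follow the genotype. The other set followed doxycycline in KO cells, and in wild-type cells it read 7.92, 7.89 and 7.64 at day 1 and 7.96, 8.07 and 8.05 at day 0. The arrays therefore do not settle how much Irf4 mRNA the wild-type cells held.

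Of 15 genes of marginal zone and B1 cells, the innate-like B cell subsets, 11 fell and 2 rose, and 8 were at least 2-fold lower. Cd1d1 (-3.32), which presents lipids, Hes1 (-3.97) and Dtx1 (-2.91), a pair of Notch targets, stood with Cr2 at the head of the fall. In bulk RNA, fewer cells of a subset and less RNA per cell cannot be told apart, here or in any group below.

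The receptors for the cytokines added to the culture moved unequally. Il5ra, the private chain of the IL-5 receptor, read 10.68, 10.67 and 10.69 on day 1 arrays, against 8.35, 8.19 and 8.21 on day 0 arrays. Il2ra, the high-affinity chain of the IL-2 receptor, read 8.44, 8.34 and 8.34 at day 1 and 6.49, 6.46 and 6.37 at day 0. Il4ra differed by 0.17 (SE 0.11, limma adjusted p = 0.17), although its day 1 arrays lay above its day 0 arrays and it passed the threshold when only wild-type arrays were fitted (adjusted p = 0.0163). Stat5a, which IL-2 and IL-5 receptors activate, was 1.88 higher. Il10ra (-2.49) and Ifngr1 (-1.54), receptors for cytokines that were not added, were lower. Over the 22 tested receptors, Jaks and STATs, 4 rose and 12 fell (33.9% and 47.6% over all genes).

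Feedback inhibitors also moved both ways. Socs1, which blocks Jak kinases, read 11.06, 10.92 and 10.94 on day 1 arrays and 7.51, 7.36 and 7.39 on day 0 arrays. Cish, a STAT5 target that acts on the same receptors, read 12.01, 11.93 and 11.98 at day 1 and 8.67, 8.55 and 8.66 at day 0. These genes and Socs2 were the 3 members at least 2-fold higher among 12. Socs5 (-1.37), Socs3 (-0.97) and the phosphatase gene Ptpn1 (-0.73) fell. The list as a whole had 4 risers, 6 fallers and a median of -0.20, while 33.9% of all genes rose and 47.6% fell.

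Of 20 known IL-4 and STAT6 response genes on the arrays, 15 passed the filter, so members low on nearly all arrays were not counted. Among the 15, 11 rose and 3 fell (33.9% and 47.6% over all genes), with 7 at least 2-fold higher (11% over all genes). Besides Ccl22, Dhrs3 and Socs1 they included Bcl2l1, which codes for the survival protein Bcl-xL and read 11.63, 11.53 and 11.56 on day 1 arrays, against 7.95, 8.14 and 8.06 on day 0 arrays. Nfil3 (3.00), a basic leucine zipper factor of class switching to IgE, Ccl17 (2.40), the other CCR4 ligand, and Batf (2.14), an AP-1 factor that works with Irf4, were also higher. Fcer2a, the low-affinity IgE receptor CD23, rose by 0.72. Gfi1, a repressor that IL-4 is known to induce in T cells, was an exception at -3.05.

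A STAT6 site, TTC and GAA with 4 bases between them, was found in the promoters of 4 of the 14 members of this list with a RefSeq promoter (28.6%): Dhrs3, Ccl17, Fcer2a and Hivep3, the last a gene with 3 other probe sets called against its representative one. The share was 6.8% of all genes and 5.8% of the tested genes. In other lists, 1 of 15 chemokine genes (6.7%, again Ccl17) and 0 of 7 SOCS and feedback genes with a promoter held a STAT6 site. A STAT site with 3 bases between TTC and GAA lay in 1 of those 7 (14.3%), against 8.1% of all genes and 7.2% of the tested genes. The STAT6 motif is its own reverse complement, so both strands are covered by 1 search. The Dhrs3 window is printed because that gene rose most among the 4. It lies at chr4:144892898-144893017 on the plus strand, with the site in capitals and 119 bases before one annotated start and 179 before another.
Dhrs3: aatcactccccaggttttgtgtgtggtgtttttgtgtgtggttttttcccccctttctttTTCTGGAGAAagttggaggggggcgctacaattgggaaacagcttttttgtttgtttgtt

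Signalling and target genes of CD40 moved both ways, with 7 of 18 higher and 7 lower (33.9% and 47.6% over all genes). The 5 at least 2-fold higher were Ebi3, a cytokine subunit (2.93), Fas, the death receptor (2.55), Traf1, an adaptor that NF-kB induces (2.51), Icam1, an adhesion molecule (1.58), and Cflar, an inhibitor of caspase-8 (1.35, with another probe set called lower). None of the list was 2-fold lower. Cd40 itself read 12.22, 12.11 and 12.13 on day 1 arrays and 11.44, 11.53 and 11.26 on day 0 arrays. The NF-kB subunits and inhibitors were mostly lower, with 12 of 15 down and 3 up. Ikbkg is counted as down by its representative probe set, while 4 of its 5 other sets were called higher. Nfkbid (-2.98), an inducible nuclear inhibitor, fell furthest among them, and Rel, the subunit c-Rel, changed by -1.33.

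The surface molecules of activation were divided. Of 23 tested, 11 rose and 12 fell, and 8 were at least 2-fold higher and 5 at least 2-fold lower. Over all genes 33.9% rose and 47.6% fell, 11% and 9.41% by at least 2-fold. The list median was -0.24, and 0.33 when a gene's probe sets were averaged, so no direction is given for this list. Ly75 (2.58), an uptake receptor also called DEC-205, Havcr1 (2.30), also called TIM-1, Cd70 (2.16), a ligand for CD27, Cd44 (1.51), an adhesion receptor, and Tfrc (1.01), the transferrin receptor, were higher. Cd69, an early activation antigen, read 11.23, 11.31 and 11.39 on day 1 arrays and 13.21, 13.11 and 13.22 on day 0 arrays. Cd274 (-2.56), the ligand PD-L1, and Icosl (-2.23), a costimulatory ligand, were lower as well. Cd86, a ligand of CD28, read 10.14, 10.14 and 10.08 at day 1 and 10.49, 10.41 and 10.78 at day 0, with a limma adjusted p of 0.0378. That call was lost after centring (0.199) and without day 0 replicate 3 (0.159) or any 1 day 1 array (up to 0.082), and the other probe set was called higher. Set against the label of activated cells, cytokine targets and growth genes were higher at day 1 while Cd69 was lower. The high day 0 readings of Cd69 likewise go against the label of cells at rest.

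Among 21 chemokines and chemokine receptors, 15 fell and 4 rose, with 10 at least 2-fold lower. Cxcr4, the receptor for CXCL12, read 9.21, 8.97 and 9.03 on day 1 arrays and 12.91, 13.02 and 13.07 on day 0 arrays. Ccl5, a chemokine of T and NK cells as well as B cells, changed by -2.54. The 3 members at least 2-fold higher were Ccl22, Ccl17 and Cxcl10 (1.70), an interferon-induced ligand of CXCR3.

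**Figure D3:**
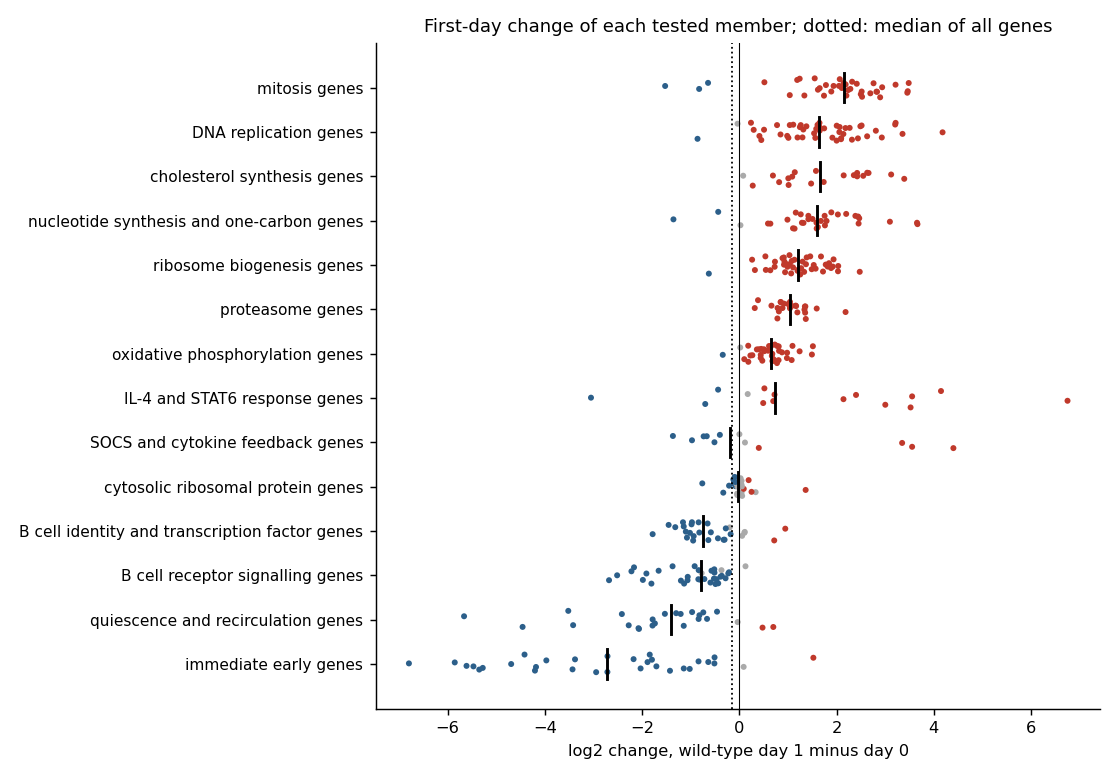
First-day log2 change (wild-type day 1 minus day 0) of every tested member of 14 gene lists, 1 point per gene; red and blue points passed the test upward and downward, grey points did not, black bars are list medians, and the dotted line is the median of all genes, -0.15. The mitosis list has the highest median shown (2.15) and the immediate early list the lowest (-2.71), and the ribosomal protein list sits close to 0.

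Genes of DNA replication rose almost as a block. Of 48 tested members, 46 rose and 1 fell, and 38 were at least 2-fold higher, with a median of 1.65. Summed intensity was 161000 to 163900 on day 1 arrays and 63950 to 68260 on day 0 arrays. Gins2 and Gins1, parts of the GINS complex of the replicative helicase, changed by 3.35 and 2.81. Gins2 read 10.87 on each of the 3 day 1 arrays, against 7.51, 7.43 and 7.60 on day 0 arrays. Pole2 (3.21), a subunit of the leading strand polymerase, Mcm10 (3.20), which helps to start the fork, and Clspn (2.93), a checkpoint mediator, followed. Cdt1, the licensing factor, was the 1 member that fell (-0.86), and Pold1 (-0.04) did not pass the test.

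An E2F site, spelled TTTCGCGC, TTTGGCGC or TTTCCCGC or a reverse complement of these, lay in the promoters of 8 of the 39 replication genes with a RefSeq promoter (20.5%), against 1.8% of all genes and 3.4% of the tested genes. The 8 were Cdc6, Gins3, Mcm5, Mcm6, Mcm7, Orc1, Pola1 and Rfc3. Among mitosis genes 2 of 32 (6.2%) and among nucleotide genes 1 of 30 (3.3%) held one. A trio of windows is shown with every match in capitals, since these genes span single and multiple matches. Cdc6 lies at chr11:98907953-98908072 on the plus strand, Orc1, a subunit of the origin recognition complex, at chr4:108579334-108579453 on the plus strand, and Mcm6, a helicase subunit, at chr1:128359706-128359825 on the minus strand.
Cdc6: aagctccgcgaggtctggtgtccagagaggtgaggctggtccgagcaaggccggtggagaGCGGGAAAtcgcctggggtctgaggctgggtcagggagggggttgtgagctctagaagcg
Orc1: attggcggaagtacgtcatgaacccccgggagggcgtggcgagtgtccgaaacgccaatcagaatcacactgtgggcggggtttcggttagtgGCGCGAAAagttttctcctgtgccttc
Mcm6: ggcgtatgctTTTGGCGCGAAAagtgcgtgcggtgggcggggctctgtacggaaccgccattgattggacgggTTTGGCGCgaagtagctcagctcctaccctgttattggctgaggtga
Mcm6 holds 3 matches, and the first pair of them overlap. These genes changed by 4.18 (Cdc6), 2.31 (Orc1) and 2.00 (Mcm6).

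Supply of deoxynucleotides and one-carbon units rose with replication. In that list 29 of 32 genes rose and 2 fell, with 26 at least 2-fold higher and a median of 1.59. Shmt1, the cytosolic serine hydroxymethyltransferase, read 11.51, 11.60 and 11.50 on day 1 arrays and 7.89, 7.83 and 7.91 on day 0 arrays. Rrm2, the small subunit of ribonucleotide reductase, read 12.51, 12.48 and 12.48 at day 1 and 8.55, 8.57 and 9.40 at day 0. Mthfd2 (3.09) and Shmt2 (2.46), the mitochondrial branch of the folate cycle, and Psat1 (2.44), of serine synthesis, rose too. Of 26 DNA repair and recombination genes 24 rose and 2 fell, among the risers Chek1 (3.19), a checkpoint kinase, and Brca1 (2.40). Ung, the glycosylase that processes deaminated cytosines in class switching, was 2.02 higher.

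Mitosis genes had the highest median of all lists. Of 39 tested, 36 rose and 3 fell, and 35 were at least 2-fold higher, with a median of 2.15. Cdk1, the mitotic kinase, read 12.19, 12.29 and 12.34 on day 1 arrays and 8.45, 8.49 and 9.52 on day 0 arrays. Bub1 (3.48), of the spindle checkpoint, and Ncapg (3.46), a condensin subunit, rose about as far as Cdk1 (3.45), followed by Spc24 (3.21), of the kinetochore. Cdc25b (-1.53), Cenpa (-0.83) and Pttg1 (-0.64) fell.

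Day 0 replicate 3 stood apart in these genes. It was the highest of the 3 day 0 arrays in 36 of 39 mitosis genes and in 34 of 48 replication genes, against 4339 of all 12183 genes. In the median mitosis gene it lay 0.42 above the mean of the other 2 day 0 arrays. Without that array the mitosis median was 2.34 and the replication median 1.68, so the rise was as large without it. The same array was highest in 19 of 22 plasma cell genes and 13 of 15 germinal centre genes.

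Among cyclins, CDKs and E2F factors, 22 of 32 rose and 8 fell. Ccnd2, the D cyclin of B cell activation, read 13.70, 13.68 and 13.68 on day 1 arrays and 10.95, 10.89 and 10.98 on day 0 arrays. Ccna2 (3.10), E2f7 (2.60), a repressor of the E2F family, and Tfdp1 (2.43), the E2F partner, were higher. Chromatin factors that travel with replication rose as well, with Uhrf1 (3.51), Hells (3.42) and Ezh2 (2.24), the methyltransferase of Polycomb complex 2. Jarid2 (-2.31), an accessory subunit of that complex, and Kdm6b (-2.23), which removes its mark, fell, so the list of 21 chromatin genes had 13 risers and 7 fallers.

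Growth machinery rose broadly and by smaller steps. Of 44 ribosome biogenesis genes 43 rose and 1 fell, 29 of them at least 2-fold, with a median of 1.21. Nop16, of the nucleolus, read 12.03, 11.99 and 11.88 on day 1 arrays and 9.52, 9.57 and 9.39 on day 0 arrays. Bysl, which matures the small subunit, changed by 2.03. The E-box CACGTG, which Myc binds, lay in the promoters of 2 of 38 of these genes (5.3%), against 6.9% of all genes and 9.8% of the tested genes. Myc itself read 12.12, 12.11 and 12.06 on day 1 arrays and 13.23, 13.26 and 13.21 on day 0 arrays, a fall of 1.14. Its antagonists Mnt (-2.14), Mxd4 (-2.02) and Mxd1 (-1.15) fell too, and Srm, the spermidine synthase, rose by 2.76.

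Genes of the ribosome's structural proteins showed mostly small differences of either sign. Of 30 tested cytosolic ribosomal protein genes 4 rose and 9 fell, with Rpl14 (1.36) the 1 member past 2-fold and a median of -0.03. After arrays were centred 19 rose and 2 fell with a median of 0.13, and after quantile normalization the median was 0.01, so no direction is given for this list. Summed intensity was 494400 to 497100 at day 1 and 503600 to 505800 at day 0. These are bright probe sets, on arrays whose highest intensities were 24490 to 25040 at day 1 and 26210 to 26540 at day 0, and whether they were near saturation was not tested.

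Of 32 translation factors and tRNA synthetases 29 rose and 1 fell, with 20 at least 2-fold higher. Mars1 (1.83) and Aars (1.77), which charge the tRNAs for methionine and alanine, and Eif2b3 (1.79), which recharges the initiation factor eIF2, are examples. All 26 proteasome genes tested rose, 16 at least 2-fold, with a median of 1.04, and Psme3, the PA28 gamma activator, changed by 2.18. Of 20 cytosolic chaperones 16 rose and 3 fell. Stip1, which hands clients from Hsp70 to Hsp90, read 12.36, 12.39 and 12.33 on day 1 arrays and 10.81, 11.16 and 10.76 on day 0 arrays. The heat shock genes Hspa1a and Hspa1b, near-identical copies whose probe sets may share signal, changed by -2.74 and -2.72 and so went against their list. Day 1 replicate 3 was the low array for both, at 6.21 for Hspa1a and 7.75 for Hspa1b.

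Energy and lipid genes were raised too. Of 38 oxidative phosphorylation genes 36 rose and 1 fell, with 5 at least 2-fold higher and a median of 0.66. Of 28 mitochondrial biogenesis and import genes 26 rose and 0 fell (also 0 at an unadjusted p under 0.05 in limma), with a median of 1.18, led by Mrps22 (2.05). Of 19 glycolysis genes 12 rose and 3 fell, with Hk2, the inducible hexokinase, at 11.33, 11.20 and 11.18 on day 1 arrays and 9.09, 9.19 and 9.40 on day 0 arrays. Slc16a1 (2.86), a lactate carrier, and Slc7a5 (2.18), of the large neutral amino acid carrier, led the transporters, of which 9 of 17 rose and 7 fell.

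Cholesterol synthesis rose as well. Of 20 genes 19 rose and 0 fell (also 0 at an unadjusted p under 0.05 in limma), 16 of them by at least 2-fold, with a median of 1.66. Idi1, of the isoprenoid steps, read 13.15, 13.15 and 13.11 on day 1 arrays, against 9.77, 9.81 and 9.68 on day 0 arrays. Fdps (3.12), Sqle (2.66) and Lss (2.55) cover successive steps towards lanosterol. The sterol response element core TCACCCCA, on either strand, lay in the promoters of 2 of 16 of these genes (12.5%), against 1.5% of all genes and 1.7% of the tested genes. One was Hmgcs1, the synthase that feeds the pathway, whose day 1 arrays read 12.73, 12.83 and 12.81, against 10.72, 10.75 and 10.47 at day 0. Its window at chr13:119690154-119690273 on the plus strand is shown with the core in capitals, 137 bases before the start.
Hmgcs1: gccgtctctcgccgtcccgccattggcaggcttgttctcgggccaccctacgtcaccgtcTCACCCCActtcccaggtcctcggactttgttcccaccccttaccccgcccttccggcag
The other was Srebf2, which codes for the sterol-regulated factor SREBP2 and differed by 0.08 (adjusted p above the threshold). Among 17 fatty acid synthesis genes 12 rose and 4 fell. Fads1 (2.30), Acaca (1.45) and Fasn (1.37) were among the risers, and Cpt1a (-1.50), which commits fatty acids to oxidation, among the fallers.

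Survival and death genes moved both ways. Among 18 genes 5 rose and 8 fell, with a median of -0.13 that was 0.0307 after centring. Over all genes 33.9% rose and 47.6% fell with a median of -0.15, so no direction is given for this list. Beside Bcl2l1, Birc5 (2.69), survivin, rose, and it is also a mitosis gene. Pmaip1, the BH3-only killer Noxa, read 9.41, 9.32 and 9.23 on day 1 arrays and 12.47, 12.44 and 12.65 on day 0 arrays, and Bcl2l11 (-1.57), Bim, fell with it. Another BH3-only killer, Bid (0.99), rose, and the protective Bcl2 (-0.84) and Mcl1 (-0.51) fell.

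Plasma cell genes had not risen as a group by day 1. In that list of 22 genes 3 rose and 12 fell, with 5 at least 2-fold lower and a median of -0.49. Over all genes 33.9% rose and 47.6% fell, with 9.41% at least 2-fold lower, so the share of falls was near that of all genes. Jchain, which joins IgM and IgA polymers, read 10.28, 9.78 and 11.56 on day 1 arrays and 13.12, 12.93 and 13.59 on day 0 arrays, so the arrays of each day scattered but did not overlap. Prdm1, which codes for Blimp-1, read 7.41, 7.35 and 7.85 at day 1 and 8.12, 7.87 and 8.37 at day 0, with an adjusted p of 0.01 that was lost without day 1 replicate 2 (0.0501), without day 0 replicate 3 (0.0621) and after centring (0.0659). Slamf7 (1.51) and Xbp1 (0.70), the factor of the secretory programme, were higher. Of 31 ER chaperone and stress genes 20 rose and 10 fell: Sdf2l1 (2.31) and Pdia3 (1.32), which fold secretory proteins, were higher, and Ddit3 (-3.07), the stress factor CHOP, and Dnajb9 (-2.84) lower.

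**Figure D4:**
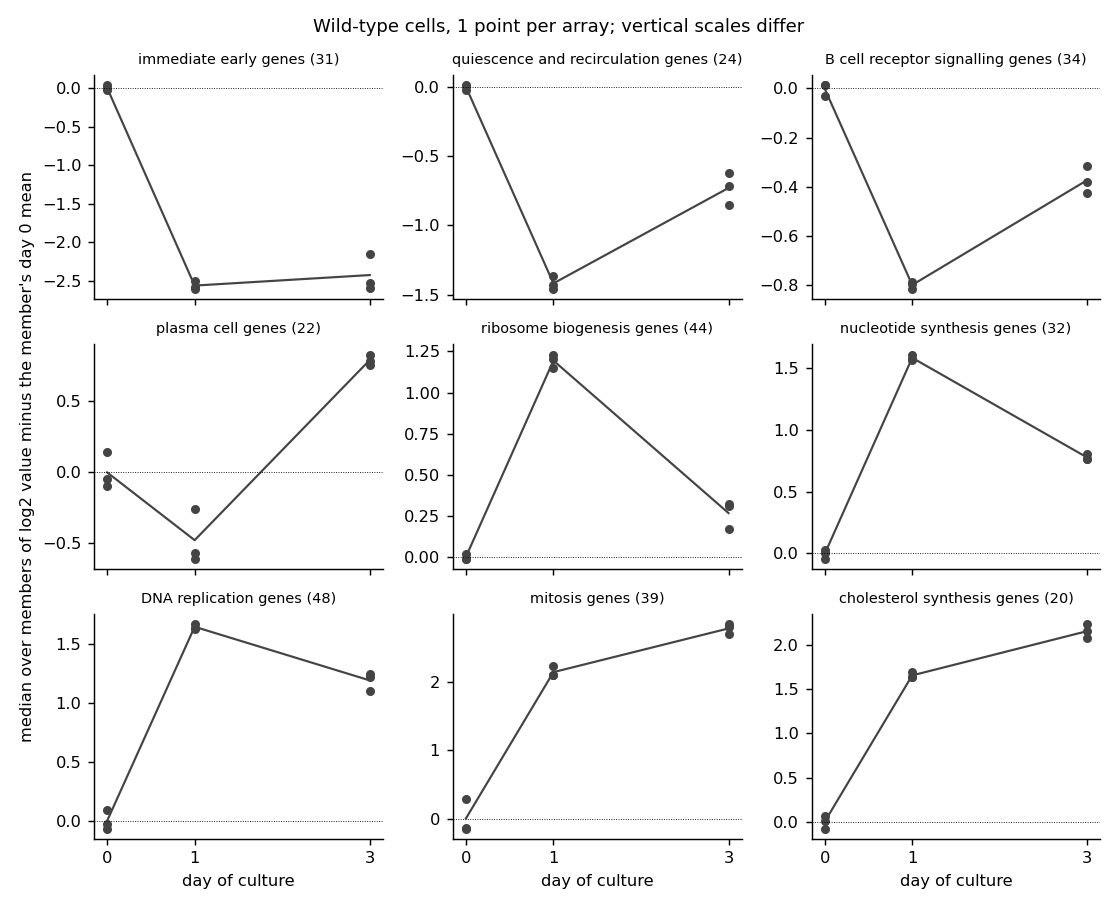
Median over the members of 9 gene lists of each array's log2 value minus the gene's day 0 mean, for wild-type arrays at days 0, 1 and 3 (1 point per array, lines join the means of 3; vertical scales differ between panels and the number of genes is in brackets). Immediate early genes stay low after day 1, quiescence and receptor signalling genes lie between their day 0 and day 1 levels at day 3, and plasma cell genes are above day 0 only at day 3.

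The lists parted again between day 1 and day 3. Of 12183 genes 8458 differed (69.4%), 5270 higher and 3188 lower at day 3. At least 2-fold higher were 3.88% of genes and at least 2-fold lower 2.77%. This comparison shares the day 1 arrays with the first-day one, so the values are placed side by side and not related to each other. Ribosome biogenesis genes were lower at day 3 in 43 of 44 cases (median -0.97) and mitochondrial biogenesis genes in 22 of 28 (-0.73). Nucleotide genes were lower in 24 of 32 (-0.59) and replication genes in 36 of 48 (-0.36). Mitosis genes were higher in 28 of 39 and lower in 0, with a median of 0.56, and cholesterol genes were higher in 13 of 20. Plasma cell genes were higher in 19 of 22 with a median of 1.09, among them Jchain (2.91) and Prdm1 (1.93). Ccl22 was 4.18 lower at day 3 than at day 1, and Ccnd2 2.20 lower.

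Interferon response genes rose on the first day, though not evenly between mice. Of 28 tested 19 rose and 2 fell, and 14 were at least 2-fold higher, with a median of 0.99. Iigp1, an interferon-induced GTPase that acts on intracellular parasites, read 9.28, 9.03 and 9.41 on day 1 arrays and 6.33, 6.29 and 6.56 on day 0 arrays. Irgm1, a related GTPase, read 12.19, 12.22 and 12.06 at day 1 and 10.24, 10.34 and 10.36 at day 0. For Ifit1, which binds foreign RNA caps, day 1 arrays read 9.56, 9.89 and 8.84 and day 0 arrays 7.53, 7.48 and 7.68. The third day 1 array was the low one, and in the median interferon gene it lay 0.29 below the mean of the other 2 day 1 arrays.

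The same first day in KO cells without doxycycline served to show where the wild-type response differed. Among the 1341 genes at least 2-fold higher in wild type, 1059 (79%) were so in KO cells, which is 79% of the 1341 such KO genes. Background was 11% of all genes in each genotype. Of the 1147 genes at least 2-fold lower in wild type, 709 (61.8%) were so in KO cells, which is 79.3% of 894 KO genes, where the background was 7.34%. Tested directly, as the wild-type change minus the KO change, 5344 genes differed (43.9%), 1397 with a positive difference (11.5%) and 3947 with a negative one (32.4%). At least 2-fold were 0.837% and 1.73%. The array labelled KO day 1 replicate 2 carried a raised reading of the doxycycline-tracking Irf4 probe set (10.77, against 7.84 and 7.80 on the other arrays of its group). Without it and the low-dose array that goes against its label, 4723 genes differed. After centring the direction of the majority turned, with 2657 positive and 1968 negative.

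Interferon genes had the lowest median difference of the lists. Of 28, 27 had a negative difference and 0 a positive one (the same counts at an unadjusted p under 0.05 in limma), with 26 at least 2-fold, and a median of -1.69. Without both arrays that go against their labels 27 were still negative and the median was -1.65. Usp18, which damps the interferon receptor, read 10.84, 11.02 and 10.20 on wild-type day 1 arrays and 12.80, 12.74 and 12.42 on KO day 1 arrays. At day 0 the wild-type arrays read 8.51, 8.95 and 8.82 and the KO arrays 7.98, 7.35 and 8.01. The difference of changes was -2.95 (SE 0.27, limma adjusted p = 7.77e-08), with a rise of 1.93 in wild type beside 4.87 in KO. Without both arrays that difference was -2.90.

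Cytosolic chaperones had 16 of 20 positive differences and 0 negative (19 and 0 at an unadjusted p under 0.05 in limma), and ribosome biogenesis genes 25 of 44 positive and 1 negative. Without both arrays that go against their labels these were 15 and 0 for chaperones and 21 and 1 for ribosome biogenesis. Stip1 rose by 1.45 in wild type and 0.40 in KO. Socs2 rose by 4.40 in wild type and 2.14 in KO, a difference of 2.26 (SE 0.27, limma adjusted p = 2.31e-06) that was 2.25 without both arrays. At day 0 its KO arrays already read higher (8.65, 8.66 and 8.31) than the wild-type arrays (7.39, 7.40 and 7.69). At day 1 they read lower (10.36, 10.65 and 11.03, against 11.86, 11.86 and 11.97), so both days enter the 2.26. In contrast Ccnd2 differed by 0.01 and Klf2 by 0.04 between the genotypes' changes, and neither passed the test, which does not show that they are equal.

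**Figure D5:**
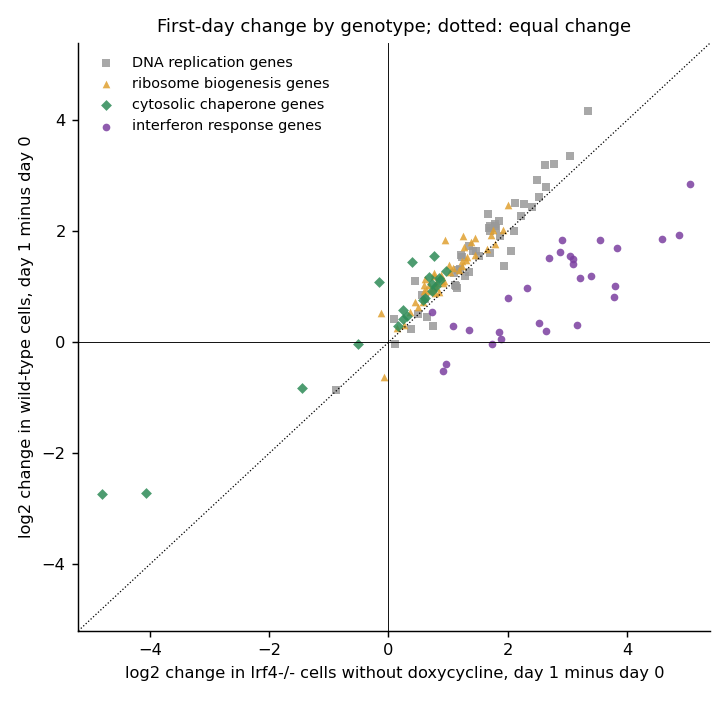
First-day log2 change of single genes in wild-type cells (vertical axis) against the change in Irf4-/- cells without doxycycline (horizontal axis), for 4 gene lists; the dotted line marks equal change. Interferon genes lie below the line, 27 of 28 with a called difference, while chaperone and ribosome biogenesis genes lie mostly on or above it.

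Markers of other blood cells were present at low levels and mostly fell. The counts below stand beside 33.9% of all genes that rose and 47.6% that fell. None of 11 T cell markers rose and 11 fell, with summed intensities of 2403 to 2560 on day 1 arrays and 8614 to 9021 on day 0 arrays. Much of the day 0 sum is Cd2, which mouse B cells also express and which changed by -3.35. Of 10 NK markers 0 rose and 7 fell (1266 to 1673 at day 1, 2209 to 2652 at day 0), and of 20 myeloid markers 0 rose and 13 fell (3586 to 3808 at day 1, 8740 to 9550 at day 0). Myeloid falls included C1qa (-2.30) and Lyz2 (-1.26). Of 8 erythroid and platelet markers 6 fell and 1 rose (1571 to 1646 at day 1, 2650 to 3261 at day 0). Dendritic cell markers summed to 4186 to 4923 at day 1 and 2585 to 2698 at day 0, with 5 of 8 lower and 3 higher. The risers were Zbtb46 (2.47), a transcription factor of classical dendritic cells, Bst2 (1.51), a marker of plasmacytoid dendritic cells that interferon also induces, and Batf3 (0.52), a factor of cross-presenting dendritic cells. Zbtb46 read 9.40, 9.34 and 9.40 on day 1 arrays and 7.00, 6.76 and 6.96 on day 0 arrays. Dendritic cells also make Ccl22 and Ccl17, which rose with these markers, while Flt3 (-1.23) and Itgax (-0.74), a receptor and an integrin of dendritic cells, fell. At an unadjusted p under 0.05 in limma the T cell, NK and myeloid lists again had 0 risers. The lowest reading of any of these markers on the 6 arrays was 5.46 in the myeloid list, and the part of other cells in the results above was not tested.

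The B cell markers themselves summed to 83610 to 89420 on day 1 arrays and 114200 to 115500 on day 0 arrays. Ms4a1, which codes for CD20, changed by -0.22, and 8 of the 10 tested B cell markers fell, against 47.6% of all genes. After arrays were centred 6 of the 10 fell, with a median of -0.21.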

How the data were processed

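RNA from 30 mouse B cell cultures was hybridised to 1-colour Affymetrix arrays (250 ng total RNA each, per the labels' protocols). The authors deposited linear signal intensities, normalized with D-Chip from perfect-match probes, per the series text. MAS5 is also named in the submitters' processing notes, with no role given. Array signals give no counting depth, so the number of arrays limits the precision.

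Of 45101 probe sets, 64 controls were left out, and 34945 had 1 gene symbol, 932 several and 9160 none in GEO's platform annotation. Symbols were updated through Entrez identifiers with RefSeq (GRCm38.p6) for 34741 sets, and 204 kept the annotation's name. A set was tested if at least 3 of 30 arrays exceeded the table's median (188.245). Each gene took its tested set of highest mean. The log2 values of the deposited intensities plus 16 were fitted in limma 3.58.1 under R 4.3.3, with all 30 arrays and 1 mean per group (20 residual degrees of freedom), and p-values adjusted by Benjamini-Hochberg over 12183 genes. The interaction is the wild-type change minus the KO change without doxycycline. With 3 arrays in each of 2 groups the smallest exact permutation p is 0.1, two-sided, so none was used.

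The groups, lists and rules were chosen with earlier results of these data known. Named were the 12 largest rises and falls with groups that do not overlap (passing over unnamed transcripts and immunoglobulin variable genes), the 6 largest interactions each way, up to 6 members of each list by size, and a panel of regulators. Other named genes were chosen after their values were seen. These were further members of the immediate early, replication, mitosis and marker lists, and the promoter matches. Cd79b, Cd44, Vav3, Bcl2, Mcl1, Rpl14, Hivep3, Hmgcs1 and Srebf2 were chosen in the same way. The replicate numbers paired the wild-type arrays weakly: deviations of same-numbered day 1 and day 0 arrays correlated at 0.0268, 0.165 and 0.196. Deviations of wild-type arrays with different numbers correlated at -0.21 to 0.0868. In KO arrays same-numbered deviations correlated at 0.442 to 0.528. The series text says that 2 replicates were run in parallel and 1 at another time, without saying which, so this batch could not be fitted. Promoters were RefSeq windows of GRCm38.p6 outside chr18, and a gene counted as holding a motif if any of its annotated starts did. Tests were checked on simulated data.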

Additional observations from a re-analysis of the deposited data

Results flagged for a closer look

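In 5344 of 12183 genes the first-day change differed between wild-type and KO cells in limma's interaction test, and the genes with the largest differences each way are given here as wild-type change minus KO change. Positive differences were 3.43 for Slc12a5, 2.91 for Nebl, 2.45 for Mdm1, 2.38 for Hk2, 2.36 for Cd5l and 2.26 for Socs2. For Slc12a5, a chloride carrier best known from neurons, wild-type arrays read 6.42, 6.34 and 6.28 at day 1 and 6.49, 6.58 and 6.47 at day 0, while KO arrays read 6.53, 6.39 and 6.32 at day 1 and 10.84, 10.57 and 8.61 at day 0. Nebl, Mdm1, Hk2 and Cd5l likewise had their highest readings on KO day 0 arrays, and for Hk2 and Cd5l the third of these arrays was much lower than the others (10.32 for Hk2 and 7.44 for Cd5l).

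Negative differences were -3.22 for Ighg3, -3.00 for Cmpk2, -2.96 for Mx1, -2.95 for Usp18, -2.89 for Jchain and -2.85 for Ifit3. Cmpk2, Mx1, Usp18 and Ifit3 are interferon-induced genes. Jchain fell in wild-type cells and read between 6.06 and 6.78 on all 6 KO arrays. Without the 2 arrays that go against their labels these differences lay between -3.15 and 3.41, and each stayed under the threshold. Probe sets with no or several gene symbols were not used above. Of 4427 of them tested, 3458 changed between wild-type day 1 and day 0, with 208 at least 2-fold higher and 627 at least 2-fold lower.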

How the results depend on the processing

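The count of genes changed on the first day lay between 7877 (stricter filter) and 12516 (no filter) over the gene-level alternatives, against 9932, and was 17471 when every tested probe set was counted by itself (7419 higher, 10052 lower, 2425 and 2160 at least 2-fold). The interaction then had 9099 calls (3316 positive), and day 3 against day 1 had 14475. Without any 1 array the first-day count lay between 9506 and 9719, and 9052 of the 9932 genes were called in the same direction in each of those fits. The replicate block gave 10251 first-day calls, 6298 interaction calls and 8990 for day 3 against day 1, and no count moved by over 1.5 times. Interaction calls were 2657 positive and 1968 negative after centring, and 2596 negative under the stricter filter. Without any 1 of the 12 arrays interaction calls lay between 4658 and 5807, and day 3 calls between 7805 and 7999.

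Centring turned the median of all genes to 0.012 and the medians of the CD40 list (0.0938), the ribosomal protein list (0.127, and 0.0127 after quantile normalization), the Bcl2 list (0.0307) and the germinal centre list (0.0182). The germinal centre median was also above 0 after quantile normalization (0.0276), with averaged probe sets (0.0135) and under the stricter filter (0.253). Averaging a gene's probe sets turned the costimulatory list (0.33), Cd86 (0.25) and Ikbkg (0.25). With that averaging 9209 of the 9932 genes were still called in the same direction, and 197 were called in the other. The stricter filter turned the dendritic cell list (1.02), with fewer genes tested. For the others the cause was not tested. Of 5708 values of named genes under the alternatives, 35 lost and 17 gained the threshold. Fits that leave out the KO arrays that go against their labels were added after seeing the data and gave 9917 and 9943 first-day calls.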

Other observations

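Replicates of the wild-type groups were uneven in a few gene groups. Plasma cell genes were highest on day 1 replicate 3 in 18 of 22 cases and on day 0 replicate 3 in 19 of 22. Mitosis genes were highest on day 1 replicate 3 in 32 of 39 cases and on day 0 replicate 3 in 36 of 39. Ighg3 read 9.32, 9.11 and 9.78 on day 1 arrays and 10.06, 10.01 and 11.51 on day 0 arrays, and Basp1, a membrane protein gene of germinal centre B cells, read 11.93, 11.89 and 11.99 at day 1 and 8.53, 8.32 and 9.86 at day 0. All tested genes were highest on day 1 replicate 3 in 4934 of 12183 cases.

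Members of the nutrient transporter and nucleotide lists differed between genotypes in their first-day change. Slc16a1, a lactate carrier, changed by 2.86 in wild type with a difference from KO of 1.61, and Slc29a1, a nucleoside carrier, by 1.82 with a difference of 1.64. Nutrient transporters had 11 of 17 positive differences and 2 negative, and nucleotide genes 15 of 32 positive and 2 negative (10 and 2, and 14 and 2, without the KO arrays that go against their labels), against 11.5% and 32.4% of all genes.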
